A study of Mus musculus with 21 samples.

Results

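The Hox clusters were examined in DNase-seq peak lists of adult mouse liver. The members were the 39 protein-coding genes whose symbols give a Hox cluster (a to d) and a paralog number in the GENCODE annotation of the mouse build mm9. Their open regions were the union regions (merged peaks of all livers) that overlapped a Hox gene body or lay within 10 kb of it, 33 of the 68362 union regions. The Hoxa cluster held 15 of them, Hoxb 9, Hoxc 4 and Hoxd 5. In DNase-seq, a light DNase I digest of nuclei releases short fragments from open chromatin, which pile up as peaks when sequenced. The livers came from untreated, pituitary-intact male CD-1 (ICR) mice aged 8 to 10 weeks, 1 liver per library, and each was classed by the STAT5 DNA-binding activity of its extract in an electrophoretic mobility shift assay. STAT5 is the transcription factor that pulses of growth hormone activate in male liver. Lists were analysed for 8 livers with high activity (STAT5_High) and 10 with low activity (STAT5_Low). A further 3 livers that the submitters titled outlier were not analysed here. The series' design text and their titles class 2 as high and 1 as low by the assay, and for 2 of the 3 the treatment label gives the opposite class. The design text calls them outliers for their DNase profiles, so the classes compared were selected in part on the measurement compared.

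Hox genes encode homeodomain transcription factors that pattern the body from head to tail in the embryo. They stand in clusters, and their order along the chromosome follows the order of the body levels at which they act. In cells that do not use them, Polycomb complexes keep Hox clusters repressed, Trithorax proteins oppose that repression, and the insulator protein CTCF separates active from repressed stretches. HOX proteins bind DNA together with TALE homeodomain cofactors of the PBX and MEIS families, and retinoic acid acts on several clusters in development.

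No region of the Hox clusters had a peak in every liver. The sequences printed are those of the region found in most livers of each cluster and of a further Hoxa region found in 10 livers, each as 150 bases around the strongest summit on the plus strand of the mm9 reference, with no account of CD-1 variants. The first lies in an intron of Hoxa3 (chr6:52120806-52120955), the second in the region 9713 bp before the Hoxa13 start (chr6:52220814-52220963). The third lies between Hoxb9 and Hoxb8 (chr11:96140160-96140309), the fourth between Hoxc9 and Hoxc8 (chr15:102817963-102818112) and the last in an intron of Hoxd3 (chr2:74564611-74564760). Capitals mark the 14 bases that match the CTCF consensus with 1 mismatch at Hoxb9-Hoxb8 and 2 mismatches at Hoxc9-Hoxc8. The window at Hoxa7, in 10 livers, overlaps an exon and is not printed.
Hoxa3 intron: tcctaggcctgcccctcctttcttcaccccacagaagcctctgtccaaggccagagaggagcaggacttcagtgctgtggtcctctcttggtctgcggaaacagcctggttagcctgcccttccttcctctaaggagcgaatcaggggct
Hoxa13 distal: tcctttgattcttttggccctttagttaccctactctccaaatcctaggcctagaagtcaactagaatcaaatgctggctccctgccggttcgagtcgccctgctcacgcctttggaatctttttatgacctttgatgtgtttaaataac
Hoxb9-Hoxb8: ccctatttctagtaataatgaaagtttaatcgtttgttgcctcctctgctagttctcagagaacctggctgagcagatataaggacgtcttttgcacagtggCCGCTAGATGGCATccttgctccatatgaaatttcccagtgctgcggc
Hoxc9-Hoxc8: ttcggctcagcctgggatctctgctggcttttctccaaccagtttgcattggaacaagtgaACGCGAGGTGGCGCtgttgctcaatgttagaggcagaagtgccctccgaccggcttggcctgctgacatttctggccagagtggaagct
Hoxd3 intron: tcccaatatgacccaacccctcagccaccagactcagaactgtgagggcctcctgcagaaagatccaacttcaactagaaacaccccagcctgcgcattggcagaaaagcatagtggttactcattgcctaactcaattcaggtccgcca

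Libraries held 12890880 to 23395665 tags, per the file headers, and lists held 18673 to 45144 peaks. STAT5_High libraries held at most 17504539 tags, and 7 of the 10 STAT5_Low libraries held more than that. The weakest peak that entered a list had a per-million pileup (the pileup, or reads stacked at the summit, per 1000000 tags of the library) of 0.490 ± 0.0259 in STAT5_High and 0.449 ± 0.0424 in STAT5_Low livers (SD), so weaker sites could enter STAT5_Low lists. A region without a peak in a liver is therefore a region in which none was called at that depth. The label of the tissue held: 18 of 19 hepatocyte genes, such as those for the liver's secreted proteins and its transcription factors, had a region open in all 18 livers within 10 kb. The same was true of 1 of 7 macrophage, 4 of 8 endothelial, 1 of 8 stellate, 2 of 6 cholangiocyte and 2 of 6 lymphocyte markers. Among protein-coding genes other than Hox the share was 43.2%, and a region within 10 kb can belong to a neighbouring gene. Within 1 kb of a transcription start, 14 hepatocyte, 1 endothelial and 1 cholangiocyte gene had a region open in all 18 livers. For macrophage, stellate and lymphocyte markers that number was 0. A whole liver holds these cell types too, and fewer cells of a type with an open site and a site less open in each cell cannot be told apart in such libraries.

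Hox regions were found in few livers. A peak was present in a single liver at 15 of the 33 (45.5%), in 2 to 4 livers at 10 and in 5 to 13 livers at 8, and none was present in 14 or more. Over all union regions, 21.6% were found in a single liver, 19.8% in 14 to 17 and 17.2% in all 18. The median Hox region was found in 2 livers and the median union region in 8. Only 3 Hox regions (9.09%), all of the Hoxa cluster, reached 9 livers, against 48.1% of all regions. These are descriptions with no test, since 33 neighbouring regions are not independent samples.

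Peaks at Hox regions were weak in the lists that held them. The 107 Hox peaks had a median pileup of 14 reads (range 9 to 29) and a median fold enrichment over local background, the authors' own value, of 4.29 (2.93 to 8.72). All 646276 peaks had a median pileup of 28 and a median fold enrichment of 5.93. When the peaks of each list were ranked by the authors' −log10 q, the median Hox peak stood at the 12.9 percentile and the highest at the 59.4 percentile. The median width was 345 bp for Hox regions and 546 bp for all regions, but width went with the number of livers. Among regions in 1 to 4 livers the medians were 291 bp (Hox) and 298 bp (all). In 5 to 13 livers they were 531.5 and 566 bp.

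**Figure D1:**
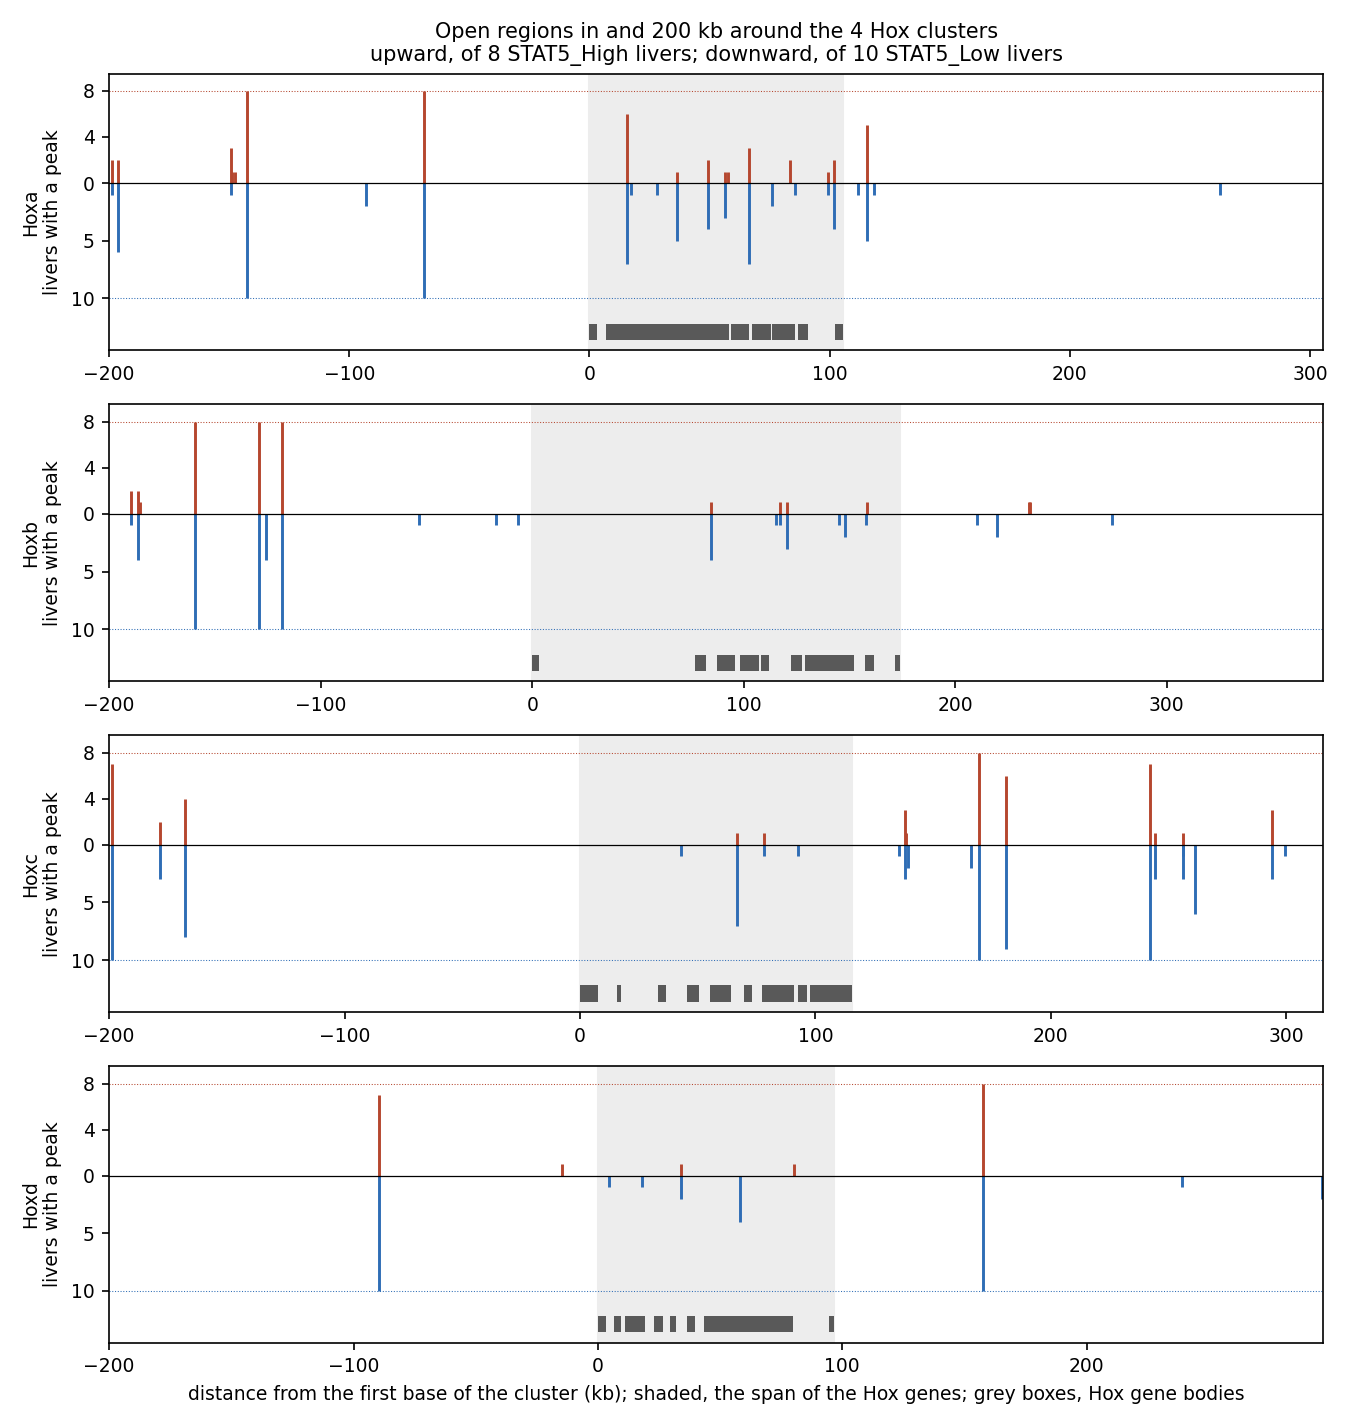
Livers with a peak at each union region in and 200 kb around the 4 Hox clusters, drawn against the distance in kb from the first base of the cluster. Bars up count the 8 STAT5_High and bars down the 10 STAT5_Low livers, dotted lines mark all livers of a class, and grey boxes are Hox gene bodies. No bar pair within the shaded Hox spans reaches both dotted lines, and pairs outside the spans do.

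The clusters lay between sites that were open in every liver, as the maps of the clusters show. The nearest regions open in all 18 livers stood 68.6 kb from the Hoxa cluster on the nearer side and 359 kb from it on the side of Hoxa13, at Hibadh. For Hoxb the distances were 118 kb, at the ATP synthase subunit gene Atp5g1, and 409 kb, at Snx11. For Hoxc they were 358 kb, at Atf7, and 53.1 kb from the Hoxc4 end. For Hoxd they were 696 kb, on the side of Atp5g3, and 60.3 kb, at Mtx2. The stretches without such a region were thus 533 kb around Hoxa, 701 kb around Hoxb, 527 kb around Hoxc and 854 kb around Hoxd. The median distance between neighbouring regions open in all 18 livers was 57.8 kb over 11726 gaps. The stretches cannot be judged by that median. Each was picked because it holds a whole cluster without such a region, so it had to be longer than the cluster. A long gap is also more likely than a short one to cover a given locus. Whether the stretches are longer than those around other loci was not tested. The stretches were not empty: they held 22, 22, 17 and 11 union regions, of which the most frequent was found in 17 livers in each. At the flanking sites the median per-million pileup ran from 1.26, on the nearer side of Hoxa, to 17, at Atp5g1.

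Among the clusters, Hoxa was the one with most open sites. It had 12.0 regions per 100 kb of window, Hoxb 6.43, Hoxd 4.28 and Hoxc 2.95. The most frequent region was found in 13 livers in Hoxa, 8 in Hoxc, 5 in Hoxb and 4 in Hoxd. Hoxa supplied 66 of the 107 Hox peaks, Hoxb 19, Hoxc 12 and Hoxd 10. The clusters share libraries, so the order is a description with no test.

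By position, 14 of the 33 regions were intergenic, 8 intronic, 6 touched an untranslated region and 5 a coding exon. Within 1 kb of a Hox transcription start lay 15 regions, and 3 of these were found in 5 or more livers, at Hoxa4, Hoxa5 and Hoxa7. None was open in all 18 livers. A promoter region in at least 1 liver was present at 13 of 39 Hox genes (33.3%) and at 55.0% of the 22199 other protein-coding genes. In all 18 livers it was present at 0 of 39 and at 29.3% of the others. Taken within 10 kb of the gene, a region open in all 18 livers was present for 0 Hox genes and for 43.2% of the others, whereas a region in any liver was present for 87.2% and 73.6%. The gene body held a region for 28.2% of Hox genes and 62.4% of the others. Hox genes lie close together, so 1 region can count for several of them. Of 54 other developmental homeobox genes, 22 (40.7%) had a promoter region in at least 1 liver and 1 (1.85%) in all 18. Of the 6 ParaHox and Cdx genes, 0 had a promoter region. A promoter without a called region in some or all livers was thus not particular to Hox genes.

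**Figure D2:**
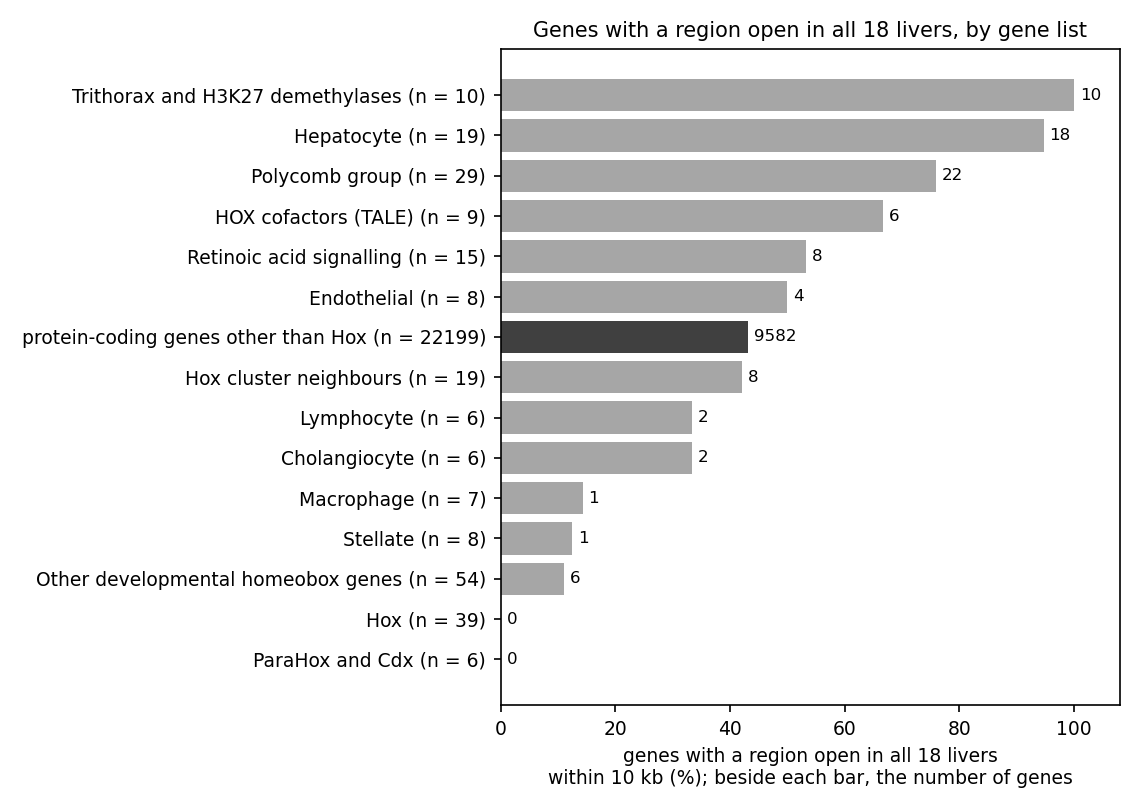
Share of the genes of each list with a region open in all 18 livers within 10 kb (horizontal axis, percent), with the number of genes at each bar and the list size in its label. The Hox genes and the 6 ParaHox and Cdx genes stand at 0, and the protein-coding genes other than Hox at 43.2%.

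Hox promoters were rich in CpG, a feature that goes with open promoters in most tissues. In the window from 250 bases before to 50 bases after the annotated start, the ratio of observed to expected CpG had a median of 0.697 over Hox genes (0.105 at Hoxa2 to 1.23 at Hoxa4) and 0.535 over other genes. The share of other genes with a region open in all 18 livers at that start was 4.20% where the ratio was under 0.25, 12.2% from 0.25 to 0.5, 33.5% from 0.5 to 0.75, 51.4% from 0.75 to 1 and 59.5% above. At Hox genes it was 0 in each class, with 3, 6, 15, 13 and 2 genes. Counted in any liver, the start of 10 of 39 Hox genes (25.6%) and of 51.5% of other genes had a region. The bars for the CpG classes show the same contrast, with both genes of the highest class, Hoxa4 and Hoxa5, open in some livers. The developmental homeobox genes outside the Hox clusters were CpG-rich as well, with a median ratio of 0.651, and the ParaHox and Cdx genes had 0.578.

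**Figure D3:**
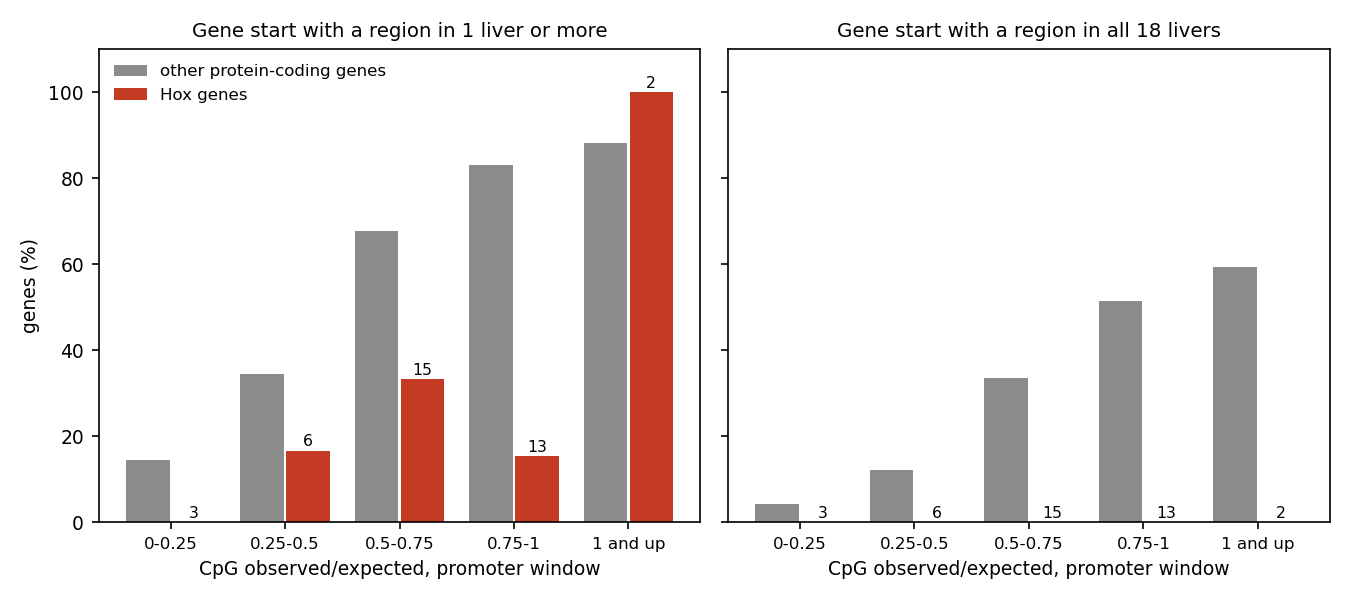
Share of genes (vertical axis, percent) whose annotated start has a region in at least 1 liver (left) or in all 18 livers (right), by the CpG observed to expected ratio of the promoter window (horizontal axis). Numbers over the red bars are the Hox genes in each class, and the right panel has no Hox bar above 0.

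In the Hoxa cluster, the most frequent region lay in Hoxa3, a gene needed for thymus and parathyroid development. It spanned chr6:52120683-52121229, touched a coding exon and stood 1419 bp from the nearest Hoxa3 start. Its per-million pileup was 0.869, 1.51, 1.02, 0.836, 0.914 and 0.943 in STAT5_High replicates 1, 2, 3, 5, 7 and 8. In STAT5_Low it was 1.25, 1.09, 0.855, 1.35, 0.884, 0.732 and 0.984 in replicates 2, 3, 4, 5, 7, 8 and 9. The ranges of the classes overlapped, and the 5 livers without a peak were of both classes. With 6 of 8 livers in STAT5_High and 7 of 10 in STAT5_Low, Fisher's exact test gave p = 1.

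The promoter of Hoxa7, which acts in the thoracic region of the embryo, was the Hox start found in most livers. The region, chr6:52171334-52171979, overlapped the start and a coding exon. A peak was called in STAT5_High replicates 1, 2 and 6, at a per-million pileup of 0.796, 1.33 and 0.951. In STAT5_Low it was called in replicates 3, 4, 5, 7, 8, 9 and 10, with a lowest value of 0.628, a median of 1.03 and a highest of 1.41. Levels thus overlapped while 3 of 8 and 7 of 10 livers had a peak, and the shares were not called different (two-sided Fisher's exact test, adjusted p = 0.673).

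The Hoxa4 and Hoxa5 starts, open in 6 livers each, belong to genes that act at cervical and upper thoracic levels, Hoxa5 also in the lung. The Hoxa4 region (chr6:52141796-52142239, 44 bp from the start) had 72.3% GC and was found in 1 STAT5_High liver, replicate 2, at a per-million pileup of 1.33. It was found in 5 STAT5_Low livers, replicates 1, 2, 4, 5 and 10, at 1.01, 1.08, 0.940, 1.02 and 0.621. All 5 were below the single STAT5_High value, although the share of livers was larger in STAT5_Low (exact p = 0.152, adjusted 0.484). The Hoxa5 region (chr6:52154257-52154813) was found in STAT5_High replicates 1 and 2 and STAT5_Low replicates 3, 4, 7 and 8, at a per-million pileup of 0.680 to 0.966 over both classes. Its shares, 2 of 8 and 4 of 10, were not called different (exact adjusted p = 0.855).

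At the other end of the cluster, near Hoxa13, a gene of the digits, hindgut and urogenital tract, lay 4 regions. The one 9713 bp before the Hoxa13 start (chr6:52220587-52221078) had a peak in 5 livers of each class. Its per-million pileup was 0.651, 1.27, 0.836, 0.654 and 0.766 in STAT5_High replicates 1, 2, 5, 6 and 8. In STAT5_Low replicates 3, 6, 7, 8 and 9 it was 0.744, 1.05, 1.53, 1.05 and 0.711, and the ranges overlapped. The region 232 bp from the gene end (chr6:52206954-52207461) was found in STAT5_High replicates 7 and 8, at 1.03 and 0.884, and in STAT5_Low replicates 4, 7, 9 and 10, at 0.727, 1.18, 0.875 and 0.983. Its classes overlapped as well, and both regions had an adjusted exact p of 0.855. The region of Hoxa10, which acts in the uterus and hindlimb, at chr6:52188691-52189130, was found in 2 STAT5_High livers, replicates 1 and 2, at 0.724 and 0.845, and in no STAT5_Low liver (exact p = 0.183, in too few livers to enter the adjusted test). The combined list of STAT5_Low reads did hold a peak there, with a fold enrichment of 2.79, so the site was not absent from that class.

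Hoxb sites were thinner. The most frequent lay between Hoxb9 and Hoxb8, 2019 bp from Hoxb9 (chr11:96139928-96140443), and held the CTCF match printed above, 34 bases from the summit. It had a peak in STAT5_High replicate 8, at a per-million pileup of 0.707, and in STAT5_Low replicates 4, 5, 7 and 8, at 0.556, 0.789, 1.47 and 0.680. The peak of STAT5_Low replicate 7 had a fold enrichment of 8.72, the highest of the 107. The STAT5_High value lay inside the STAT5_Low range, and 1 of 8 against 4 of 10 livers gave an exact p of 0.314 (adjusted 0.673). A region 1673 bp before Hoxb4, a gene known for its action in blood stem cells, was found in 1 STAT5_High and 3 STAT5_Low livers (chr11:96175945-96176325, per-million pileup 0.649 to 0.849). A region 4937 bp before Hoxb4 (chr11:96172717-96173061) was found in 1 liver of each class, at 0.664 in STAT5_High replicate 2 and 0.649 in STAT5_Low replicate 7. A region in Hoxb3 (chr11:96203190-96203595) was found in STAT5_Low replicates 7 and 9, at 0.590 and 0.547. A region in Hoxb2 (chr11:96213896-96214104) was found in STAT5_High replicate 1 alone, at 0.651.

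The Hoxc cluster held the largest difference between the classes among the Hox regions tested. The region between Hoxc9 and Hoxc8, genes of the thoracic region (chr15:102817838-102818413), had a peak in a single STAT5_High liver of 8 and in 7 of 10 of STAT5_Low. In STAT5_High replicate 1 the per-million pileup was 1.23 and the fold enrichment 7.27. In STAT5_Low replicates 1, 2, 3, 4, 7, 8 and 10 the pileups were 0.776, 0.679, 1.26, 0.556, 0.943, 0.680 and 0.465. The single STAT5_High peak was thus higher than all but 1 of the STAT5_Low peaks. The exact p was 0.0248 and the adjusted p 0.254, so the difference was not called. Within the collections that label prefixes give, the site had a peak in 1 of 2 STAT5_High against 4 of 5 STAT5_Low livers of G74A, 0 of 3 and 1 of 2 of G92, and 0 of 3 and 2 of 3 of G99. The combined lists held the site in both classes, with a fold enrichment of 4.20 in STAT5_High and 5.73 in STAT5_Low. The CTCF match stood 7 bases from its summit. Of the other Hoxc regions, that in Hoxc6 (chr15:102829641-102830047) was found in STAT5_High replicate 2, at 0.724, and STAT5_Low replicate 4, at 0.641. The region at the Hoxc5 start (chr15:102844231-102844435) was found in STAT5_Low replicate 7 alone, at 0.766, and that next to Hoxc10 (chr15:102794404-102794603) in STAT5_Low replicate 8 alone, at 0.575.

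In the Hoxd cluster, the most frequent region was shared by Hoxd3 and Hoxd4 (chr2:74564392-74564971), genes of the neck vertebrae and hindbrain, and lay 198 bp from the hairpin of Mir10b, a microRNA encoded within the cluster. No STAT5_High list (0 of 8) held it, and 4 of 10 of STAT5_Low did, replicates 2, 3, 5 and 7, at a per-million pileup of 0.793, 0.572, 0.743 and 0.707. With an exact p of 0.0915 and 4 livers in all it was below the occupancy of 5 needed for the adjusted test. The combined STAT5_High list held a peak there, at a fold enrichment of 3.18, against 3.82 in STAT5_Low, so the count of 0 says only that no single STAT5_High library reached the threshold. A region 1888 bp before Hoxd8 (chr2:74540313-74540784) was found in STAT5_High replicate 3, at 0.680, and in STAT5_Low replicates 7 and 10, at 0.884 and 0.983. An intergenic region 69 bp from Hoxd3 (chr2:74586400-74586695) was found in STAT5_High replicate 6 alone, at 0.595. Regions next to Hoxd13, which acts in digit formation (chr2:74510848-74511338), and in Hoxd11 (chr2:74524402-74524725) were found in STAT5_Low replicate 7 alone, at 0.766 and 0.825.

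The other 12 Hox regions, 8 of Hoxa and 4 of Hoxb, were found in at most 4 livers each, the one in 4 being 116 bp from the Hoxa6 start (1 STAT5_High and 3 STAT5_Low livers). Of these, 9 were found in 1 liver and 2 in 2 livers. Their 17 peaks had a per-million pileup of 0.557 to 0.906.

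**Figure D4:**
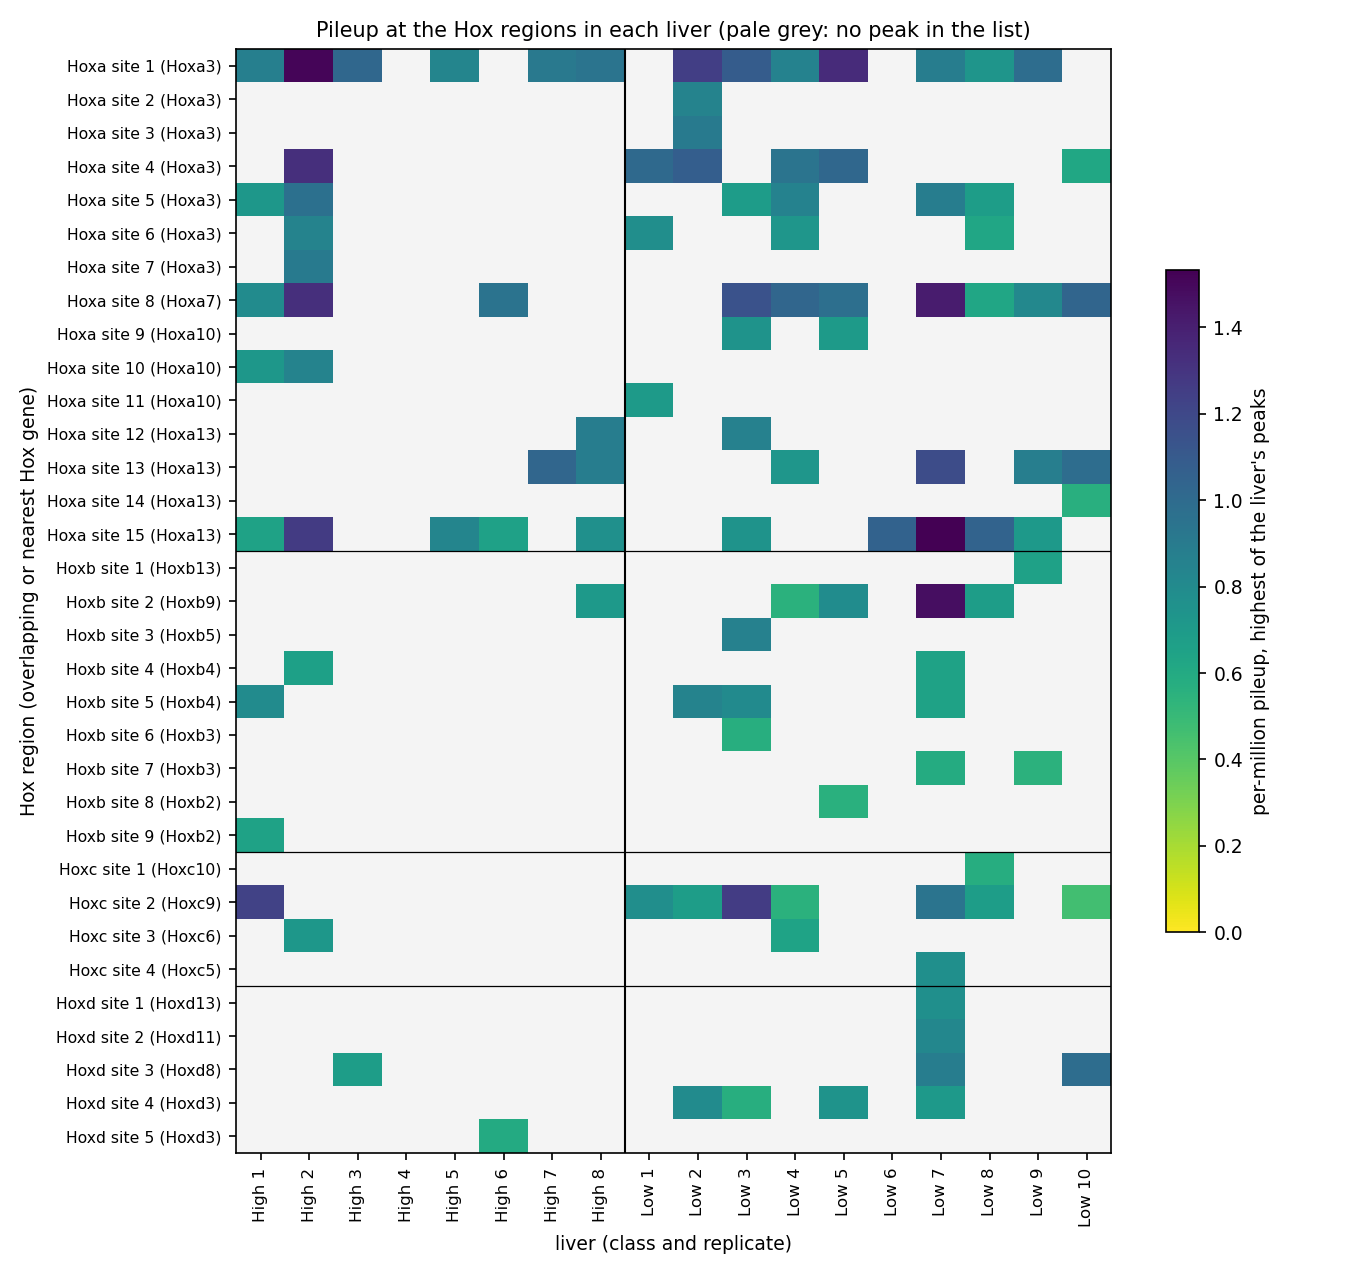
Highest per-million pileup (colour) of each liver's peaks at the 33 Hox regions (vertical axis, with the overlapping or nearest Hox gene) in the 8 STAT5_High and 10 STAT5_Low livers (horizontal axis). Pale grey marks a region with no peak in that list, and no region is filled in all 18 livers, the fullest being that in Hoxa3 with 13.

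Genes with no region at all within 10 kb included Hoxb1, an early target of retinoic acid in the hindbrain, Hoxd1, Hoxc12 and Hoxc13. Paralog groups 2 and 3 held the highest occupancy, 13 livers, through the Hoxa3 region, groups 6, 7, 9, 10 and 13 reached 10, and groups 11 and 12 reached 2 and 1. In each paralog group above 8 livers the value came from the Hoxa member.

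The test of presence called no Hox region between the classes. It was run over the genome on the 15631 regions found in 5 to 13 livers, the range in which an exact p of 0.01 or less is possible. Of the 8 Hox regions in that range (6 Hoxa, 1 Hoxb, 1 Hoxc), 0 passed an adjusted p of 0.05 by Fisher's exact test. Of all regions tested 1.11% passed, and the other 25 Hox regions were not tested. A call needed a p far below 0.01: an exact p of 0.000251, at Snx10, had an adjusted p of 0.0319. The 4 Hox regions in 5 to 6 livers and the Hoxa3 region in 13 could not reach a call at any split. Nor could Hoxc9-Hoxc8 towards STAT5_Low, so the count of 0 cannot decide whether these regions differ. At an unadjusted p under 0.05 there was 1 (Hoxc9-Hoxc8), against 14.1% of all tested. Exact tests stratified by collection or by replicate number left only 4 and 1 Hox regions to test and called 0 of them. STAT5_Low had the larger share of livers at 6 of the 8, and at 70.8% of all regions tested. The lean of these 8 towards STAT5_Low was thus near that of all regions tested, which leaves out the other 25 Hox regions. With 8 regions, a share at the background would give no call. The planned limma comparison of pileup levels needed a peak in all 18 livers, and no Hox region met it or the relaxed limit of 15 livers, so no Hox level was tested.

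Counted over all 33 regions, 18 had a peak in some STAT5_High liver and 29 in some STAT5_Low liver. Both classes shared 14, 15 were seen only in STAT5_Low and 4 only in STAT5_High, and most of these rest on a single liver. STAT5_Low alone thus held 45.5% of the Hox regions, against 20.1% of all 68362 union regions, and STAT5_High alone 12.1% against 11.4%. Among regions in 1 to 4 livers, STAT5_Low alone held 60.0% of 25 Hox regions and 48.4% of all 27467, and STAT5_High alone 4 of the 25 and 27.2% of all. These shares were not tested. The levels were close where a peak was called, with a median per-million pileup of 0.845 over 33 STAT5_High peaks and 0.791 over 74 STAT5_Low peaks. Over all peaks the medians were 1.70 and 1.59. Only peaks that passed the calling threshold enter such levels, here and at single regions. Close or overlapping levels therefore say nothing about the livers without a peak. STAT5_High replicates 1 and 2 supplied 8 and 10 of the 33 peaks, so these are not independent values. The median fold enrichments of Hox peaks were 4.34 and 4.26, and those of all peaks 6.12 and 5.80. By cluster, the class medians of per-million pileup were 0.884 and 0.879 in Hoxa (STAT5_High, then STAT5_Low), 0.664 and 0.652 in Hoxb, 0.977 and 0.680 in Hoxc and 0.638 and 0.780 in Hoxd. The last 2 clusters rest on 2 STAT5_High peaks each.

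The number of Hox regions per liver went with the length of the list. In STAT5_High replicates 1 to 8 it was 8, 10, 2, 0, 2, 3, 2 and 5, and in STAT5_Low replicates 1 to 10 it was 4, 7, 11, 9, 7, 1, 15, 8, 6 and 6. The means were 4 ± 3.42 (SD, n = 8) and 7.4 ± 3.81 (SD, n = 10), with overlapping ranges. The direction was not the same in every collection (the label prefixes G74A, G92 and G99). In G74A the mean was higher in STAT5_High, 9 against 7.6 (n = 2 and 5), while in G92 it was 1.33 against 8 (n = 3 and 2) and in G99 3.33 against 6.67 (n = 3 and 3). The liver with no Hox region, STAT5_High replicate 4, had the shortest list, 18673 peaks, and the liver with 15, STAT5_Low replicate 7, the longest, 45144. STAT5_Low replicate 6, with 1 Hox region, had the shortest list of its class, 29626 peaks. As a share of the list, Hox regions made up 0.0114 ± 0.00895% in STAT5_High and 0.0198 ± 0.00874% in STAT5_Low livers (SD), and in G74A 0.0244% and 0.0213%. The part that depth and list length play in the difference between the classes was not tested. When each list was cut to its 18673 strongest peaks by −log10 q, a single Hox region was left, that between Hoxb9 and Hoxb8, in 1 STAT5_Low liver.

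**Figure D5:**
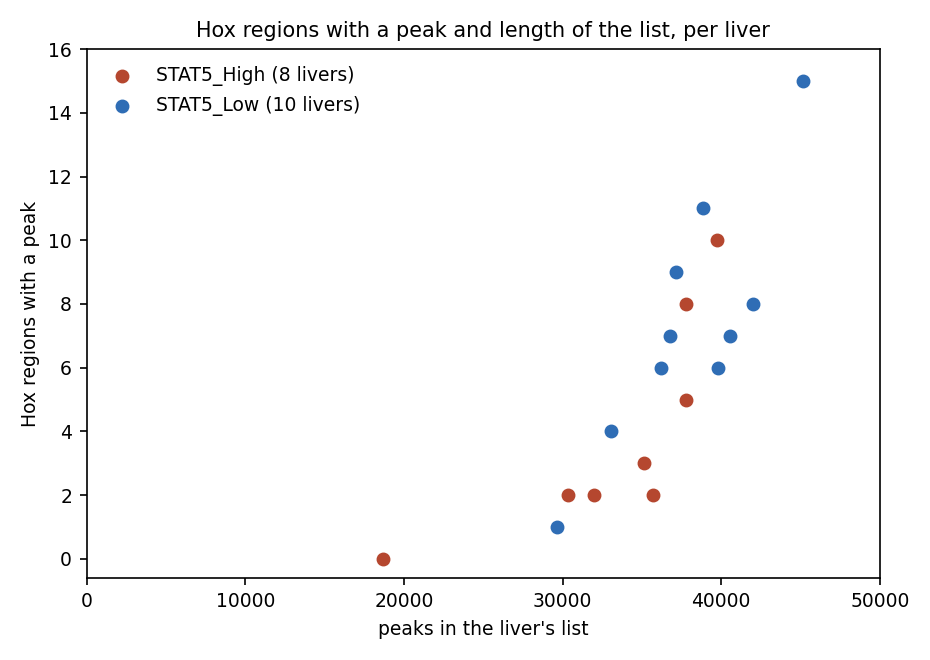
Number of Hox regions with a peak in a liver (vertical axis) against the number of peaks in that liver's list (horizontal axis), 8 STAT5_High livers in red and 10 STAT5_Low livers in blue. Counts run from 0 in the shortest list to 15 in the longest, and the classes overlap between 1 and 10 regions.

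Pooled reads showed further weak Hox sites. The combined lists, called by the authors on 128701824 STAT5_High tags and 184748725 STAT5_Low tags, held 41 and 52 peaks at the Hox genes. Of these, 17 and 23 lay where no single liver had a region. A promoter peak was present at 14 Hox genes in STAT5_High and at 17 in STAT5_Low. Of the 33 regions, 23 were found again in the combined STAT5_High list and 29 in the combined STAT5_Low list. Fold enrichments at Hox peaks stayed at or under 5.16 in STAT5_High and 5.73 in STAT5_Low. The lists rest on unequal depth and have no replicates, so their numbers are not compared by a test.

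Motifs in Hox regions were at shares close to those of all regions. The STAT5 motif TTCNNNGAA, searched on both strands, was in 6 of 33 Hox regions (18.2%) and in 20.3% of all regions. The PBX-HOX motif TGATNNAT was in 5 (15.2%) and 20.7%. Among regions in 1 to 4 livers, the STAT5 motif was in 16% of Hox and 14.2% of all regions, and the PBX-HOX motif in 12% and 14.4%. In 5 to 13 livers the shares were 25% and 22.3% for STAT5 and 25% and 23.3% for PBX-HOX. A strict CTCF core was in 0 Hox regions and 4.06% of all regions. The CTCF consensus with up to 2 mismatches, a setting chosen after the Hoxb9-Hoxb8 and Hoxc9-Hoxc8 sequences had been seen, was in 11 (33.3%) and 34.4%. Among regions found in 5 to 13 livers it was in 5 of 8 Hox regions and in 32.3% of all such regions. The Hoxb9-Hoxb8 and Hoxc9-Hoxc8 regions, which set the rule, are among those 5, so the higher share is no independent finding. No Hox region held the direct repeats bound by HNF4 or RXR (DR1, in 0.266% of all regions) or by retinoic acid receptors (DR5, 0.379%). Hox regions were richer in CpG, with a median observed to expected ratio of 0.569 against 0.243. A match is a description of the letters and does not show binding.

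Several groups of genes that act with or on the clusters had regions open in every liver, and the Hox genes had none; the differences between lists were not tested. Of 9 TALE cofactors, 6 had a region open in all 18 livers within 10 kb, and of 29 Polycomb genes 22 did. All 10 Trithorax and H3K27 demethylase genes matched in the annotation had one, as did 8 of 15 genes of retinoic acid signalling. The 6 ParaHox and Cdx genes, relatives of Hox genes, had none. Of 54 other developmental homeobox genes, 6 had one (11.1%), and 18 had a region in 9 or more livers (33.3%). In that measure Hox genes stood at 7 of 39 (17.9%), all in Hoxa, and all other protein-coding genes at 63.4%.

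Neighbours of the clusters were open at a share like that of other genes, 8 of 19 with a region open in all 18 livers. Of their 57 regions 14 were tested and 2 called between the classes, where 1.11% of all regions tested were called. Both lay on the side of Hoxa: Snx10 (chr6:51528255-51528916) and Hibadh (chr6:52556241-52556688), a gene of valine breakdown. In STAT5_High 7 of 8 lists held each, and in STAT5_Low 0 of 10 (Fisher's exact test, adjusted p = 0.0319). No region of the TALE, Polycomb, Trithorax, ParaHox, retinoic acid or other homeobox lists was called, with 15, 24, 4, 3, 18 and 28 regions tested. Of the cell type lists, only that of hepatocytes held a call, 2268 bp from Foxa1 (chr12:58638655-58639350), the gene of a pioneer factor, held by all 8 STAT5_High lists and by 0 of 10 in STAT5_Low (exact adjusted p = 0.00744).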

How the data were processed

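Each liver's DNase-seq peaks had been called by the authors with MACS2 2.1.0.20150731 on that liver's reads without a control library, with a q cutoff of 0.05, a shift of -100, an extension of 200 and 40 as tag size, per the file headers. The submitters' processing notes name Bowtie2 and build mm9. The deposited pileup is the signal at a peak's summit, in extended reads, and was not scaled between libraries by the authors. The deposited fold enrichment is the ratio of that summit to local background, and the deposited −log10 q is MACS2's significance. For the 2 combined lists, the tags in the headers equal the sums over the livers of a class.

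Here the peaks of the 18 lists that shared 1 bp were merged into union regions, and pileups were divided by the tags in the same list's header and multiplied by 1000000 (per-million pileup). Hox genes and other genes came from GENCODE vM1, sequences from the NCBIM37 (mm9) reference, whose chromosome ends no peak passed. Hoxa3 has 2 annotation records, joined here. No 2 lists had more than 0.0688% of peaks with the same start and end. Presence was compared region by region with Fisher's exact test (two-sided), adjusted by Benjamini-Hochberg over all 15631 regions of the genome found in 5 to 13 livers, threshold 0.05, in Python 3.11.15 with scipy 1.17.1. Each list is 1 mouse and 1 library, so p-values measure the spread between mice and between libraries together. The main test took no account of collection or of depth, which differed between the classes. A limma fit of levels had been planned; no Hox region qualified, so neither it nor its alternatives were run.

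Regions described in full are, per cluster, up to 3 with the smallest unadjusted p and up to 3 found in most livers; where regions tied in a small cluster, all were named. The regions at the Hoxa5 start and 232 bp from Hoxa13 fall outside this rule and were chosen after their values were seen. Some values of single Hox genes are not reported here. Names of neighbours or list genes are given where a region was called. Members, lists and tests were chosen with earlier results of these data known. Alternatives were a −log10 q of at least 5, equal numbers of top peaks, merging within 100 bp, all regions tested, strata by collection (the label prefixes G74A, G92 and G99, whose meaning the labels do not give), gene bodies or 50 kb around them, a replicate block and each liver left out. Promoter and microRNA tables of another build were not used for coordinates. The script for the presence test was checked on simulated data with known answers.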

Additional observations from a re-analysis of the deposited data

Results flagged for a closer look

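Of 12 groups of values checked for a liver far from the rest of its class, 2 held one, and chance alone gives about 1 in 20. STAT5_High replicate 4 had a list of 18673 peaks, where the next shortest list of its class held 30315. It was also the liver with 0 Hox regions, and 0 of the 8 Hox regions tested with it and 0 of the 7 tested without it were called. STAT5_Low replicate 6 had a median fold enrichment of 5.747 at Hox regions, above the next value of its class, 4.913. That median rests on the only Hox peak of the liver, at the region 9713 bp before the Hoxa13 start.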

How the results depend on the processing

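Most Hox regions in the main test could not reach a call at any split. The count of Hox regions called by presence was 0 in every alternative that tested any, but few were tested. There were 8 at first, 7 or 8 with a liver left out, 4 with strata by collection or gene bodies, 3 with a −log10 q of at least 5, 1 with the replicate block and 0 with equal numbers of top peaks, which says nothing. The replicate block, an exact test stratified by replicate number over 16 livers, was added after the data were seen and called 0. Same-numbered livers deviated together (correlation over 0.1) in 3 of 8 pairs, which are the 3 pairs from a single collection, and the other 5 were at or below 0.0506, so the numbers were not taken to pair livers. The count of Hox regions and of Hox genes with a region in all livers stayed at 0 under all 23 alternatives that bear on it, at 50 kb around the genes too, while the share of other genes with one ran from 33.4% (gene bodies) to 62.3% (50 kb). The number of Hox regions, 33, was 15 with peaks of a −log10 q of at least 5, 1 with the same number of top peaks per list and 19 in gene bodies only. It was 42 within 50 kb, 33 with merging within 100 bp and 30 to 33 with a liver left out. The region at Hoxc9-Hoxc8 kept its direction where it was tested, with differences of -70 to -54.2 percentage points (STAT5_High minus STAT5_Low) and adjusted p of 0.134 to 0.859 by exact tests. It was not tested with the −log10 q limit (-17.5 points) or the replicate block (-62.5 points). Of the regions not called, 2 with small differences changed sign. The Hoxa3 region, at 5 points, gave -2.78 without STAT5_Low replicate 1, 6 or 10 and up to 15.7 without another liver. The region 9713 bp before the Hoxa13 start, at 12.5 points, gave -5 with the −log10 q limit. The cause was not tested. Over the genome, 174 calls became 495 with equal numbers of top peaks, 48 with all regions tested, 48 with strata by collection, 258 with the replicate block, and 273 without STAT5_High replicate 4. No list held a peak with a pileup under 7, so weaker sites cannot be seen in single livers at this depth.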
